A study of Mus musculus with 8 samples.

Results

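The growth factor receptor genes of dendritic cells (DC), 9 in number, were followed through 8 RNA-seq libraries. They were the rows of the deposited count table whose Entrez gene ID maps to Flt3, Csf1r, Csf2ra, Csf2rb, Csf2rb2, Il3ra, Kit, Csf3r or Il7r, and all 9 were found among 27179 gene rows. All 9 also passed the filter on low counts that left 14238 genes for testing. The cells were plasmacytoid DC (pDC) and conventional DC (cDC) sorted from the spleens of C57BL/6 mice that carried leukemia, so every group, controls included, came from leukemic animals. Mice received panobinostat (LBH589), an inhibitor of histone deacetylases, or vehicle for 2 days. Each of the 4 groups (pDC vehicle, pDC panobinostat, cDC vehicle, cDC panobinostat) had 2 libraries that the labels call biological replicates, each made from a pool of 3 to 6 mice. The age of the mice, the kind of leukemia and the gates of the sort have no entry in the labels, and the labels' extraction text speaks of leukemia cells while titles and source names give pDC and cDC.

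DC arise in bone marrow from progenitors that need Flt3, a receptor tyrosine kinase, and its ligand. Csf1r and Kit are related receptor tyrosine kinases: Csf1r binds CSF-1 and IL-34 and marks monocytes and macrophages, and Kit binds stem cell factor and marks progenitors and mast cells. Csf2ra and Il3ra are the ligand-binding alpha chains for GM-CSF and IL-3. They signal through a beta chain, Csf2rb, which GM-CSF, IL-3 and IL-5 share. The mouse has a further copy, Csf2rb2, that serves IL-3 alone. Csf3r is the receptor of G-CSF, a growth factor of neutrophils, and Il7r is the alpha chain for IL-7 (with Il2rg) and TSLP (with Crlf2).

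Marker genes were set beside the labels. All 13 pDC markers (Siglech, Tcf4, Bst2 and others) were higher in pDC than in cDC under vehicle and under panobinostat by the test used below. Siglech stood at 4060 to 6550 CPM (the depth-scaled read count) in the 4 pDC libraries and at 1.57 to 3.26 CPM in the 4 cDC libraries. Zbtb46, a transcription factor of cDC, stood at 137 to 200 CPM in cDC and 2.37 to 19.6 CPM in pDC. The cDC marker Clec9a overlapped between pDC (164 to 310 CPM) and cDC (107 to 283 CPM). Cd209a, also a cDC marker, was higher in pDC (754 to 1880 CPM against 81.3 to 142 CPM in cDC). The monocyte marker Ly6c2 was higher in pDC too (1670 to 5960 CPM against 3.40 to 19.0 CPM). Of the 15 listed cDC markers, which include Flt3, 7 were lower and 2 higher in pDC under vehicle by the same test. Under panobinostat 8 were lower and 2 higher. Total counts ran from 13124861 to 20657429 per library. Panobinostat pDC replicate 2 stood apart, with 10745 genes with a count against 14927 to 19950 in the other libraries and the lowest quality weight (0.092), followed by panobinostat pDC replicate 1 (0.182). Receptor results for panobinostat pDC rest on these libraries and are therefore given without each of them where a call changed. In bulk RNA, fewer cells of a type and less RNA per cell cannot be told apart.

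Csf2rb and Csf2rb2 lie beside each other on chromosome 15 (GRCm38, GENCODE vM21), Csf2rb2 at chr15:78282507-78305721 on the minus strand and Csf2rb at chr15:78325752-78353847 on the plus strand, and their coding sequences agree at 95.2% of 2628 aligned bases. The counting of reads with several alignments is not given in the sources used here, so the levels of the pair are uncertain to the extent of their shared sequence. Of all 50-base windows of the transcripts, 18.4% of Csf2rb and 19.0% of Csf2rb2 occurred unchanged in the other gene; at 100 bases the shares were 7.0% and 7.2%. The longest identical coding run was 242 bases, and an identical stretch, coding bases 2083 to 2202 of both genes, is shown first because a read from it fits either gene. The stretch that differs most, with 22 mismatches in 120 bases (capitals mark the mismatched bases; coding bases 321 to 440 of Csf2rb and 324 to 443 of Csf2rb2), is shown next because reads from it tell the genes apart.
Csf2rb and Csf2rb2, alike: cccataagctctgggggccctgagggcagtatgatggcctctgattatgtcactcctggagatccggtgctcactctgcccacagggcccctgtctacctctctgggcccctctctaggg
Csf2rb, least alike: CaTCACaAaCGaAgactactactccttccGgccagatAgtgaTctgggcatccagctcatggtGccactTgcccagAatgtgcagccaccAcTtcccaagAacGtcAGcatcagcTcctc
Csf2rb2, least alike: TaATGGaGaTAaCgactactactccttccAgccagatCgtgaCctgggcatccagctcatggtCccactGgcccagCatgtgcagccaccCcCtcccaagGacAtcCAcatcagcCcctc

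Promoter sequence (RefSeq, GRCm38.p6) was at hand for 7 of the 9 genes, all but Csf1r and Csf2rb. The start is the one given with that sequence. The sequence of Il7r lies wholly, and those of Il3ra, Kit, Csf3r and Csf2ra partly, within the gene bounds of GENCODE vM21. Marked are 2 motifs in the 250 bases before the start: GAGGAA, the core of sites of PU.1 (the product of Spi1, a factor of myeloid receptor genes), and CANNTG, the E-box that basic helix-loop-helix factors such as Tcf4 bind, both searched on both strands. GAGGAA occurred in 23.3% and CANNTG in 66.2% of 32851 promoters of this length. Csf2ra and Csf2rb2 are shown because these chains of the GM-CSF and IL-3 receptors had opposite orders between pDC and cDC (capitals mark matches). Csf2ra is read on the minus strand from chr19:61228419-61228668 and Csf2rb2 on the minus strand from chr15:78305722-78305971.
Csf2ra: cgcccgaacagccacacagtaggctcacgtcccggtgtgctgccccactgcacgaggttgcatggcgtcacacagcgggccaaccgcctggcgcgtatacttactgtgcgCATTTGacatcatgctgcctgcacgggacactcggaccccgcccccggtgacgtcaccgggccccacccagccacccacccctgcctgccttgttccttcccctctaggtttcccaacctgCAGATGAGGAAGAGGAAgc
Csf2rb2: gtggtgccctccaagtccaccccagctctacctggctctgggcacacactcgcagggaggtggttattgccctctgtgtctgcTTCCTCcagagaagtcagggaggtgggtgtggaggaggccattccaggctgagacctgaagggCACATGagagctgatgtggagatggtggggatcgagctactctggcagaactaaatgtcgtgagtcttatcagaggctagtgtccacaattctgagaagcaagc

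The Csf2ra promoter held 2 GAGGAA and 2 E-box matches, with an E-box and a GAGGAA match sharing a base just before the start. Csf2rb2 held 1 of each, GAGGAA in its reverse form. Kit and Csf3r held 1 GAGGAA match and no E-box. Flt3 held 1 and Il7r 3 E-box matches without GAGGAA, and Il3ra had neither. A match is a run of letters, and binding was not measured. Spi1, chosen after its values were seen, stood at 3.18, 32.3, 9.52 and 55.7 CPM in the pDC libraries and 177 to 453 CPM in the cDC libraries.

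Levels of different genes were compared per length, as RPKM (CPM divided by the kilobases of all annotated exons). In vehicle pDC the highest receptor was Csf2rb2 (126 ± 28.5 RPKM, mean ± SD, n = 2), followed by Flt3 (86.9 ± 0.127), Il7r (58.5 ± 0.884) and Csf2rb (47.5 ± 7.01). Csf2ra (17.9 ± 2.26) and Il3ra (8.21 ± 3.96), the alpha chains that pair with the beta chains, were lower. Kit (3.74 ± 0.403 RPKM), Csf1r (1.69 ± 0.255) and Csf3r (0.28 ± 0.0424) were the lowest. In vehicle cDC the order was another: Csf2ra (109 ± 0.438 RPKM) and Flt3 (107 ± 3.46) led without separation beyond their spread, and Kit (32.9 ± 7.20), Csf1r (30.1 ± 7.5), Csf2rb (23.4 ± 5.36) and Csf2rb2 (18.2 ± 7.16) followed with overlapping libraries between neighbours. Il3ra (5.18 ± 0.0495 RPKM), Il7r (4.07 ± 0.820) and Csf3r (3.29 ± 1.04) closed the order. Flt3 ranked second per length in all 4 groups. The order depends on the length taken: the annotated exons of Flt3, Kit and Csf2rb (6176, 8911 and 7277 bases) are far longer than their longest protein-coding transcripts (3657, 5241 and 4900 bases), while for Csf2rb2 both are 4740 bases. Per such transcript, an alternative chosen after seeing the data, Flt3 (147 ± 0.221) had the highest mean in vehicle pDC. It lay within the spread of Csf2rb2 (126 ± 28.5), and Il7r (77.1 ± 1.16) and Csf2rb (70.5 ± 10.4) were within their spread. In vehicle cDC Flt3 (181 ± 5.84) then stood before Csf2ra (170 ± 0.680).

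**Figure D1:**
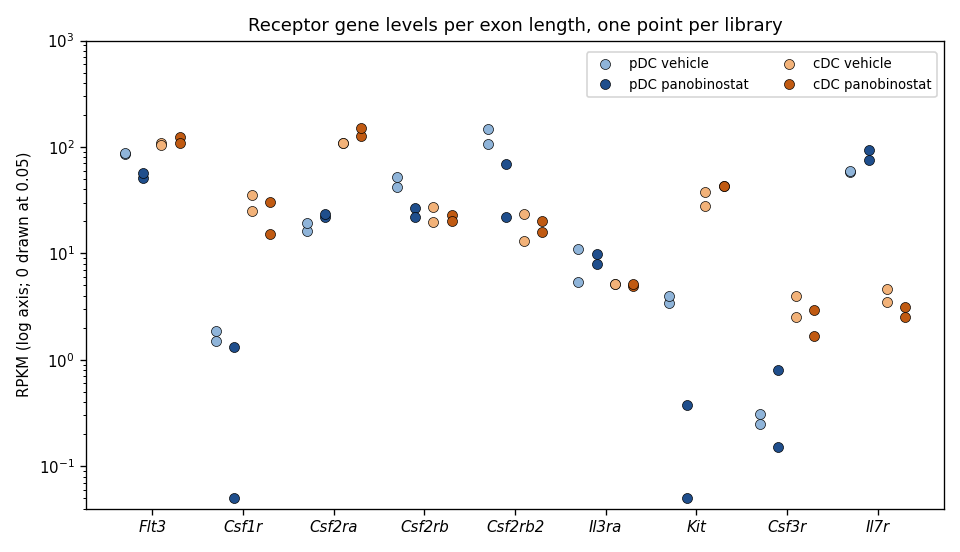
RPKM (log axis, 0 drawn at 0.05) of each receptor gene, 1 point per library and 1 colour per group. Flt3 stays near the top in all 4 groups, while Csf2ra, Kit and Csf1r sit higher in cDC and Il7r and Csf2rb2 higher in pDC, apart from panobinostat pDC replicate 2 for Csf2rb2 (22.2 RPKM).

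The first question was how pDC and cDC differ in these receptors. Under vehicle, Il7r, Csf2rb2 and Csf2rb were higher in pDC and Csf2ra was lower, by the quasi-likelihood test of edgeR, with p-values adjusted after Benjamini and Hochberg over all 14238 genes (called at an adjusted p of 0.05 or less). That is 4 of 9 receptors called, against 9.73% of all genes tested. In none of the 9 did the vehicle libraries overlap: 4 were higher in both pDC libraries, where 35.1% of all genes were, and 5 were lower, where 35.5% were. Under panobinostat 4 of 9 were called, against 18.0% of all genes: Il7r higher, and Csf2ra, Flt3 and Kit lower in pDC. Under panobinostat 3 receptors were higher without overlap (24.7% of all genes) and 5 lower (38.0% of all genes). The median log2 difference of the 9 receptors was -0.30 under vehicle and -1.12 under panobinostat, beside 0.02 and -0.18 over all genes. With 2 pools per group, p-values measure the spread between pools of a group, estimated for each gene over all 8 libraries together. Those of the vehicle comparison therefore also take in the spread of the panobinostat libraries.

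Il7r (chr15:9505788-9530176) was measured at 270 and 276 CPM in vehicle pDC and at 350 and 432 CPM in panobinostat pDC. In cDC it was 21.7 and 16.3 CPM under vehicle and 11.7 and 14.7 CPM under panobinostat. Every pDC library lay above every cDC library, and the drug groups did not overlap within either cell type. The difference between cell types was 3.85 ± 0.25 on the log2 scale under vehicle (± SE, 14.4-fold, adjusted p = 0.00126) and 4.89 ± 0.26 under panobinostat (29.6-fold, adjusted p = 0.000717). It was called under all 14 alternative settings in both comparisons. T cells and innate lymphoid cells carry Il7r too. The 11 listed markers of these cells summed to 494 to 1660 CPM in pDC and 129 to 156 CPM in cDC, and Cd4 (272 to 795 CPM in pDC) and Cd8b1 (197 to 858 CPM in pDC) made up most of the pDC sum. Both were called higher in pDC in both comparisons. The defining marker Cd3e stood at 0 to 1.30 CPM in pDC and 0.241 to 2.34 CPM in cDC, with 0 counts in both panobinostat pDC libraries. The part of these cells in Il7r was not tested.

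Csf2ra (chr19:61223957-61228429) showed the opposite order, at 46.7 and 55.9 CPM in vehicle pDC and 62.7 and 67.9 CPM in panobinostat pDC. Vehicle cDC had 315 and 313 CPM and panobinostat cDC 367 and 429 CPM. The cell types did not overlap, and in both the panobinostat libraries were the higher ones. The difference was -2.61 ± 0.18 under vehicle (6.12-fold lower in pDC, adjusted p = 0.00142) and -2.61 ± 0.18 under panobinostat (6.10-fold lower, adjusted p = 0.0013). Csf2ra, too, was called under all 14 alternatives in both comparisons.

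Under vehicle the beta chains were higher in pDC, the reverse of Csf2ra. In pDC, Csf2rb2 had 694 and 503 CPM under vehicle and 330 and 105 CPM under panobinostat; in cDC it had 110 and 62.2 CPM under vehicle and 95.3 and 75.3 CPM under panobinostat. Csf2rb went from 382 and 309 CPM under vehicle to 194 and 161 CPM under panobinostat in pDC, and had 198 and 142 CPM against 168 and 146 CPM in cDC. Vehicle pDC thus stood above the other 3 groups for both genes, and below vehicle pDC neighbouring groups overlapped. Under vehicle Csf2rb2 was 2.80 ± 0.59 higher in pDC on the log2 scale (6.95-fold, adjusted p = 0.0358) and Csf2rb 1.02 ± 0.23 higher (2.03-fold, adjusted p = 0.045). Under panobinostat the differences were 1.35 ± 0.56 (adjusted p = 0.145) and 0.18 ± 0.23 (adjusted p = 0.628). The vehicle calls of both genes were lost when any 1 vehicle library or either panobinostat cDC library was left out (adjusted p 0.0858 to 0.228 for Csf2rb2 and 0.119 to 0.278 for Csf2rb), and that of Csf2rb also with RLE scaling (0.0755). Without panobinostat pDC replicate 2 the Csf2rb2 difference under panobinostat was 1.89 and was called (adjusted p = 0.0127).

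The ratio of the beta chains also stood apart between the cell types, which was not tested. As counts, Csf2rb2 was 1.82, 1.63 and 1.70 times Csf2rb in both vehicle pDC libraries and panobinostat pDC replicate 1, 0.65 times in panobinostat pDC replicate 2 and 0.44 to 0.57 times in the cDC libraries. Per exon length it was 2.79, 2.50, 2.61 and 1.0 times in the same pDC libraries and 0.67 to 0.87 times in cDC, and per longest protein-coding transcript 1.88, 1.68, 1.76 and 0.68 times in pDC and 0.45 to 0.59 times in cDC. On each of these scales the IL-3 chain was the higher one in 3 pDC libraries and the lower one in every cDC library, and the library that stood apart fell between them. In all 4 groups both beta chains were higher in replicate 1, and so were mast cell and basophil markers. The sum of these 8 markers in replicates 1 and 2 was 47.3 and 5.41 CPM for vehicle pDC, 39.9 and 0 CPM for panobinostat pDC, 31.6 and 3.46 CPM for vehicle cDC and 10.8 and 2.88 CPM for panobinostat cDC. The defining basophil protease Mcpt8 stood at 0 to 0.326 CPM in all 8 libraries, and 3 to 8 of the 8 markers were at 0 counts in each pDC library and 1 to 4 in each cDC library. Their part in the beta chain levels was not tested.

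**Figure D2:**
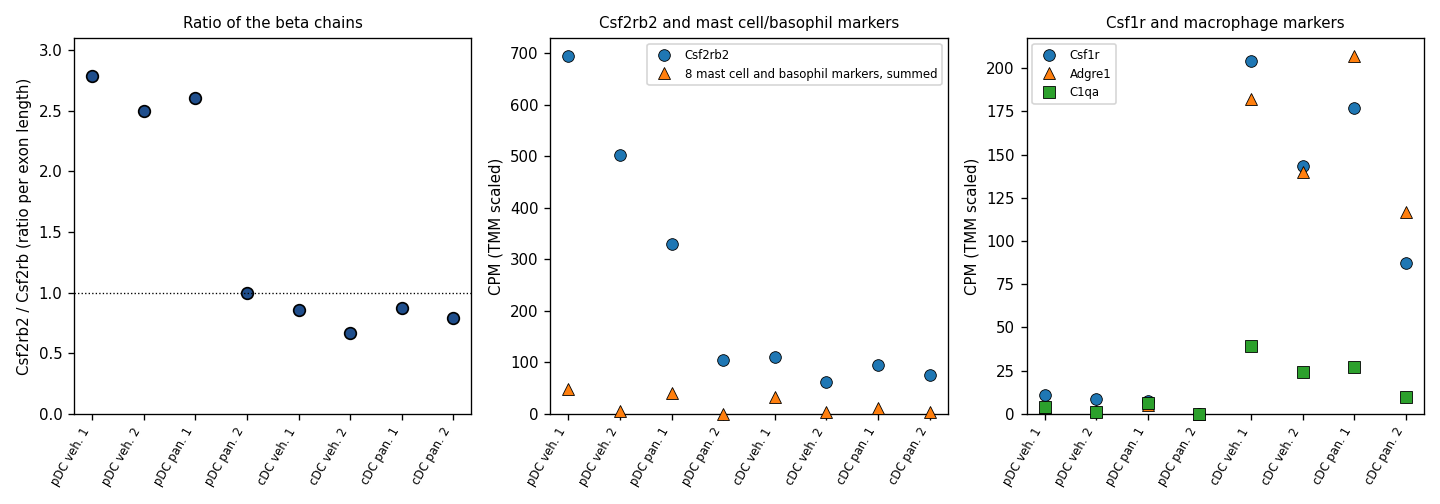
Left, ratio of Csf2rb2 to Csf2rb per exon length in each library, with the dotted line at 1; middle, CPM of Csf2rb2 and the summed mast cell and basophil markers; right, CPM of Csf1r, Adgre1 and C1qa. Ratios are 2.50 to 2.79 in 3 pDC libraries and 0.67 to 0.87 in cDC, and Csf1r and Adgre1 are high in the 4 cDC libraries.

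Il3ra (chr14:14346275-14356011), the chain that binds IL-3, was low. The pDC libraries had 16.0 and 32.7 CPM with vehicle and 23.7 and 29.5 CPM with panobinostat, and the cDC libraries 15.2 and 15.5 CPM with vehicle and 14.6 and 15.4 CPM with panobinostat. All pDC libraries lay above all cDC libraries, vehicle pDC replicate 1 by a small margin. The differences between cell types did not pass the test (0.67 ± 0.46, 95% interval -0.44 to 1.77, adjusted p = 0.472 under vehicle; 0.83 ± 0.46, -0.28 to 1.94, adjusted p = 0.252 under panobinostat). An antisense gene (Gm48860) shares 46 exon bases with Il3ra, and the strand setting of the counting is not known from the labels.

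Among the receptor tyrosine kinases, Flt3 (chr5:147330741-147400489) was high in every library. In pDC it was at 536 and 537 CPM under vehicle and at 318 and 352 CPM under panobinostat, and in cDC at 676 and 645 CPM under vehicle and at 775 and 678 CPM under panobinostat. No neighbouring groups overlapped in the order panobinostat cDC, vehicle cDC, vehicle pDC, panobinostat pDC. Under vehicle pDC had 0.30 ± 0.16 less on the log2 scale (95% interval of the difference -0.70 to 0.10, adjusted p = 0.344). Under panobinostat Flt3 was lower in pDC by 2.17-fold (log2 -1.12 ± 0.17, adjusted p = 0.0102). That call was lost without panobinostat cDC replicate 1 (adjusted p = 0.0995), without replicate 2 (0.0678), with only the libraries of the compared groups (0.114) and with limma voom and quality weights (0.14).

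Kit (chr5:75574916-75656722) separated the cell types further. Vehicle pDC had 30.8 and 35.8 CPM, panobinostat pDC 3.42 and 0 CPM (69 and 0 counts), vehicle cDC 339 and 248 CPM and panobinostat cDC 383 and 380 CPM. The lowest cDC library was thus far above the highest pDC library. The fitted difference was -3.14 ± 1.0 under vehicle (8.81-fold lower in pDC, adjusted p = 0.113), which was not called. It was called there in the fit of only the 4 vehicle libraries (-3.17, adjusted p = 0.00156), with no filter (0.0366), with DESeq2 (0.0349), with limma voom and quality weights (0.00011), and without panobinostat pDC replicate 1 (0.000294) or replicate 2 (0.000316). Among all genes 32.8% were called in the fit of the vehicle libraries, 21.5% with DESeq2, 36.7% with limma voom, 37.2% without panobinostat pDC replicate 1 and 36.1% without replicate 2, each above the 9.73% with edgeR over all 8 libraries. Under panobinostat the difference was -7.67 ± 1.26 and was called (adjusted p = 0.0134), but not without panobinostat cDC replicate 1 (0.0719) or replicate 2 (0.0702), with only the compared libraries (0.126; 1.21% of all genes called) or with limma voom and quality weights (0.0935; 3.32% called). The 10 listed progenitor and leukemia cell markers summed to 30.7 to 78.5 CPM in pDC and 25.5 to 39.9 CPM in cDC. Among them the defining marker Cd34 stood at 0 to 1.64 CPM in pDC, with 0 counts in 2 libraries, and 3.80 to 8.92 CPM in cDC, while Hoxa9 was called higher in pDC in both comparisons (2.27 to 21.6 CPM against 0.0462 to 0.0964 CPM). Their part in Kit was not tested.

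Csf1r (chr18:61100598-61132149) and Csf3r (chr4:126024550-126044440) also had their higher values in the cDC libraries. Csf1r stood at 10.8 and 8.70 CPM in pDC with vehicle, 7.54 and 0 CPM in pDC with panobinostat (152 and 0 counts), 204 and 143 CPM in cDC with vehicle and 177 and 87.0 CPM in cDC with panobinostat. The Csf3r values were 0.91 and 1.14 CPM, 2.88 and 0.56 CPM, 14.5 and 9.19 CPM, and 10.7 and 6.03 CPM in the same order of groups. For both, every cDC library was above every pDC library, and the drug groups of cDC overlapped. The differences under vehicle were -4.15 ± 1.42 for Csf1r (adjusted p = 0.131) and -3.53 ± 0.96 for Csf3r (adjusted p = 0.0737). In the fit of only the vehicle libraries both were called (-4.19, adjusted p = 0.00124, and -3.56, adjusted p = 0.00466), as they were with DESeq2 (0.0193 and 0.000278), with limma voom (0.00533 and 0.00446) and without panobinostat pDC replicate 1 (0.00108 and 0.0024) or replicate 2 (0.0011 and 0.00246); Csf1r was also called with no filter (0.0473). Under panobinostat they were -5.08 ± 1.49 (adjusted p = 0.0624) and -2.26 ± 0.91 (adjusted p = 0.138). Without panobinostat pDC replicate 1 both were called (-14.28, adjusted p = 0.000304, and -3.89, adjusted p = 0.00303), and without replicate 2 Csf1r was (-4.19, adjusted p = 0.00379), where 65.9% and 36.1% of all genes were called. DESeq2 called both (0.00228 and 0.0267; 31.6% of all genes), and with no filter Csf1r was called (0.0163). The value of -14.28 rests on 0 counts of Csf1r in the remaining library and is no measure of size.

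Markers of macrophages were compared with Csf1r and Csf3r across the cDC libraries. C1qa, a complement gene of tissue macrophages, was 39.4 and 24.3 CPM in vehicle cDC and 27.1 and 9.78 CPM in panobinostat cDC, the same order of libraries as Csf1r and Csf3r. Adgre1 (F4/80) was 182, 140, 207 and 117 CPM in these libraries, highest in panobinostat cDC replicate 1 and so in another order. In pDC it was 0 to 4.96 CPM. Lyz2 (439, 819, 350 and 404 CPM) and Treml4 (136, 218, 137 and 176 CPM) also departed, highest in vehicle cDC replicate 2. The summed level of the 14 listed markers was 894 to 1410 CPM in cDC and 1760 to 6040 CPM in pDC. Without Ly6c2, left out after its values were seen, the 13 others summed to 994 and 1400 CPM in vehicle cDC and 946 and 875 CPM in panobinostat cDC, again not the order of Csf1r, and to 76.9 to 86.8 CPM in pDC. Of those 13, 9 were at 0 counts in panobinostat pDC replicate 2, 1 in panobinostat pDC replicate 1 and 0 in the other libraries. The neutrophil list, of which S100a8 is the defining gene (0 to 4.83 CPM), summed to 0.303 to 11.0 CPM. The part of other cells in Csf1r and Csf3r was not tested. Csf1r also shares 873 exon bases with Hmgxb3 on the opposite strand.

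**Figure D3:**
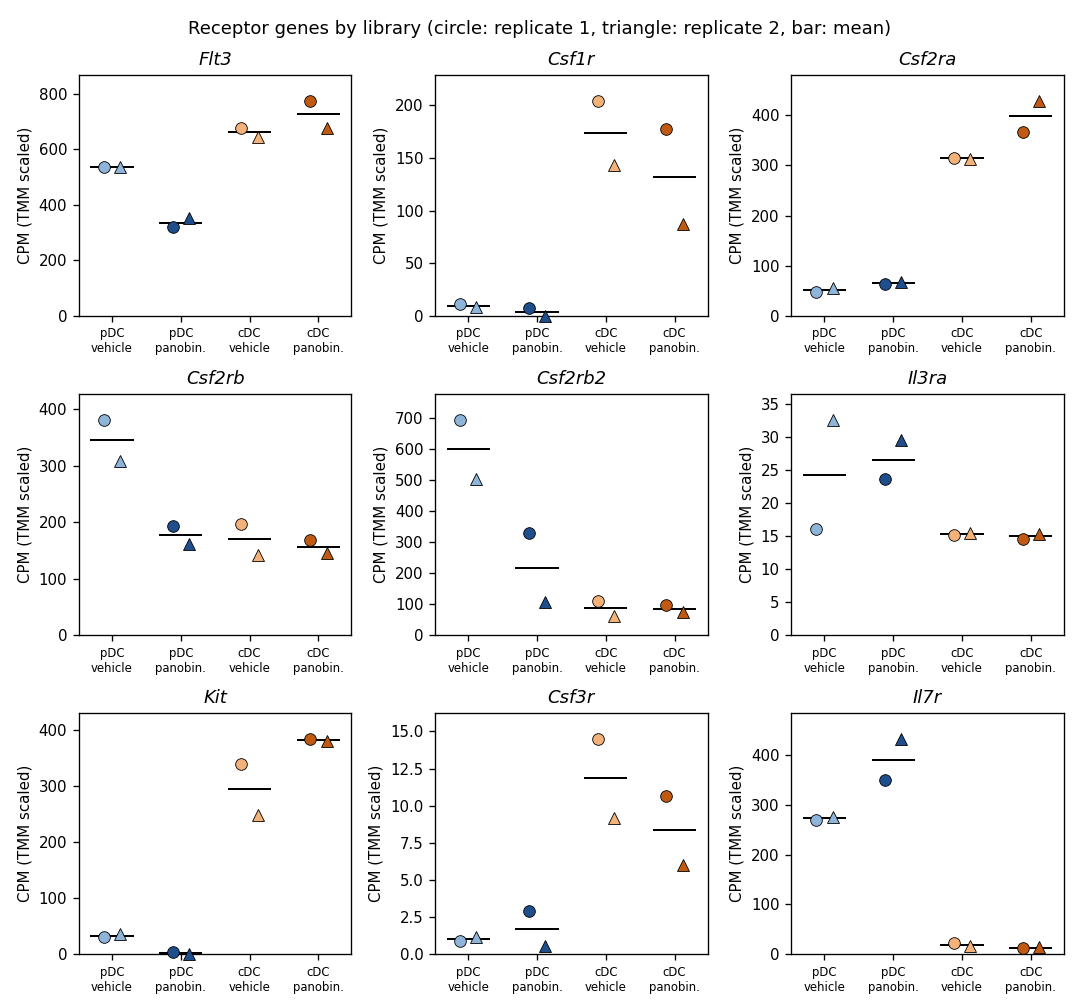
CPM of the 9 receptor genes in each library, with groups on the x axis, circles for replicate 1, triangles for replicate 2 and bars for the group mean; every y axis starts at 0. Flt3, Csf2rb and Csf2rb2 are lower in both panobinostat pDC libraries than in vehicle pDC, and Il7r is higher in both.

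The next question was what 2 days of panobinostat did to these receptors. In pDC none of the 9 passed the test, while 13 of all genes did (0.0913%; 0 with the replicate number as a block). Unadjusted p was under 0.05 for 4 of the 9 receptors (Flt3, Kit, Csf2rb and Csf2rb2), all lower under the drug, where 14.9% of all genes had such a p. DESeq2 called 3 receptors, against 6.68% of all genes with an adjusted p, and limma voom called 0 receptors and 0 genes. Both panobinostat libraries were below both vehicle libraries for 5 receptors, where 26.5% of all genes were, and above for 2 (15.7% of all genes). The median log2 difference of the 9 was -0.68, beside -0.14 over all genes.

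Flt3 differed by -0.68 ± 0.17 in pDC (95% interval -1.08 to -0.28, adjusted p = 0.183), a 1.60-fold lower level. Csf2rb differed by -0.96 ± 0.23 (-1.52 to -0.40, adjusted p = 0.182) and Csf2rb2 by -1.46 ± 0.56 (-2.82 to -0.10, adjusted p = 0.307). For Csf2rb2, replicate 2 (105 CPM) lay further below vehicle than replicate 1 (330 CPM). Kit differed by -4.16 ± 1.09 (-6.79 to -1.52, adjusted p = 0.203), from 610 and 663 counts to 69 and 0. With panobinostat pDC replicate 2 left out, Kit was called at -3.34 (adjusted p = 0.0141) and no other receptor was, against 719 of all genes (4.78%). With replicate 1 left out, 5 receptors were called lower: Flt3 (-0.62, adjusted p = 0.0326), Csf2rb (-1.11, 0.0172), Csf2rb2 (-2.52, 0.0047), Kit (-12.29, 0.00016) and Csf1r (-10.52, 0.00259). In that fit 8227 of all genes (55.3%) were called and the median log2 difference over all genes was -0.92, so the share of receptors called (5 of 9) is near that of all genes, and Flt3 differed by less than the median gene. In these fits 1 library stands for its group and is assumed to vary like the other groups, and the last 2 values rest on 0 counts in that library, so they are no measure of size. DESeq2 called Flt3 (-0.64, adjusted p = 0.024), Csf2rb (-0.93, 0.0495) and Kit (-4.24, 0.0143).

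Il7r and Csf2ra were the receptors above vehicle in both panobinostat pDC libraries. Il7r differed by 0.52 ± 0.22 (95% interval -0.01 to 1.05, adjusted p = 0.344) and Csf2ra by 0.35 ± 0.17 (-0.07 to 0.77, adjusted p = 0.395). The differences of Csf1r (-1.32 ± 1.30), Csf3r (0.76 ± 0.89) and Il3ra (0.13 ± 0.46) had adjusted p of 0.651, 0.708 and 0.915. For Csf3r and Il3ra the drug groups overlapped.

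In cDC no receptor and no gene at all was called by edgeR (0% of 14238 genes); 206 genes (1.45%) and 0 of the 9 receptors had an unadjusted p under 0.05. DESeq2 called 15 genes (0.105%) and limma voom 16 (0.112%), none of them a receptor. The libraries did not overlap for 3 receptors that were higher under panobinostat (22.2% of all genes were) and 1 that was lower (18.8% were). The higher ones were Csf2ra (0.34 ± 0.17, 95% interval -0.07 to 0.76), Kit (0.38 ± 0.92, -1.86 to 2.61) and Flt3 (0.14 ± 0.16, -0.26 to 0.53), and the lower one was Il7r (-0.52 ± 0.22, -1.07 to 0.02). Csf1r (-0.40 ± 1.24), Csf3r (-0.50 ± 0.87), Csf2rb (-0.12 ± 0.23), Csf2rb2 (-0.01 ± 0.55) and Il3ra (-0.04 ± 0.46) overlapped between drug and vehicle. The median over the 9 was -0.04, beside 0.00 over all genes. Among the cDC libraries natural killer cell markers were highest in panobinostat cDC replicate 2, where the 9 summed to 309 CPM against 56.9 to 92.4 CPM in the others, with Ncr1 at 43.1 CPM. In pDC they summed to 158 to 851 CPM, nearly all of it Klrd1 (156 to 832 CPM), with Ncr1 at 0 to 1.39 CPM.

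**Figure D4:**
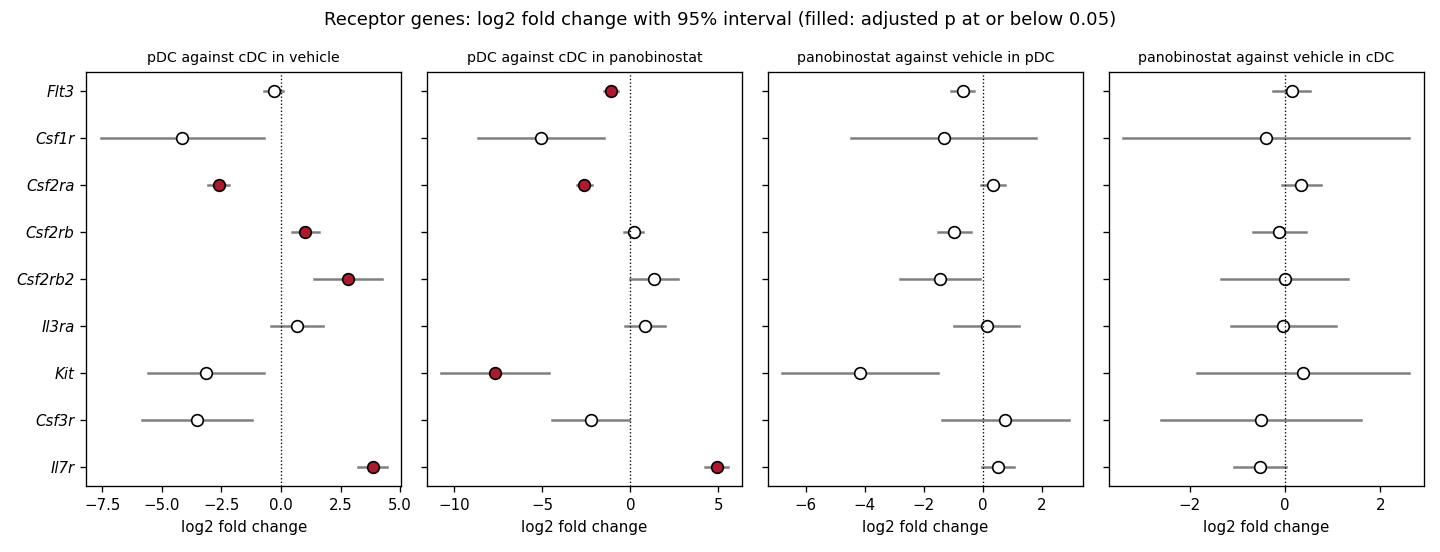
Log2 fold change of each receptor gene (points) with its 95% interval (lines) in 4 comparisons of 2 libraries against 2. The spread behind the intervals was estimated over all 8 libraries. Filled points have an adjusted p at or below 0.05. Filled points occur only in the comparisons of pDC with cDC, where Il7r lies at 3.85 and 4.89 and Csf2ra at -2.61 in both.

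Whether the drug response differed between the cell types was tested directly, as pDC response minus cDC response. No receptor passed, and 1 gene of all did (0.00702%; 0 with the replicate block). Of the 9 receptors 4 had an unadjusted p under 0.05, as did 1107 of all genes (7.77%). DESeq2 called 0 receptors (2.16% of all genes) and limma voom 0 receptors and 0 genes. Flt3 differed by -0.82 ± 0.23 (95% interval -1.38 to -0.25, adjusted p = 0.44), Csf2rb by -0.84 ± 0.33 (-1.63 to -0.05, 0.608), Kit by -4.53 ± 1.41 (-7.94 to -1.13, 0.465) and Il7r by 1.04 ± 0.31 (0.28 to 1.80, 0.456). Without panobinostat pDC replicate 2 Kit was called (-3.70, adjusted p = 0.0281), as were 1.85% of all genes. Without replicate 1 Flt3 (-0.76, 0.0445), Il7r (1.18, 0.0244), Csf2rb2 (-2.51, 0.012), Kit (-12.68, 0.00027) and Csf1r (-10.13, 0.00614) were, that is 5 of 9 where 6457 of all genes (43.4%) were called, with a median of -0.92 over all genes. For Il7r, Flt3 and Kit the panobinostat libraries lay on opposite sides of vehicle in pDC and cDC without overlap, as they did for 8.51% of all genes. For Csf2ra the difference of the responses was 0.01 ± 0.24 (95% interval -0.58 to 0.59). The median over the 9 was -0.82, beside -0.13 over all genes.

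The ligands of these receptors were scarce in the sorted DC. Of 10 ligand genes 5 had too few counts to be tested: Csf2, Il3, Csf3, Il5 and Tslp had 0 to 9 counts in every library, and Il5 had 0 in all 8. Flt3l, the ligand of Flt3, was 5.31 to 9.73 CPM in 7 libraries and 29.3 CPM in panobinostat pDC replicate 2, and its drug difference in pDC was 1.03 ± 0.78 (adjusted p = 0.555). Il7 had counts in cDC but not in pDC in the panobinostat groups, 26 and 53 counts against 0 and 0 in pDC, which is at least 20.8-fold lower in pDC (floor of 3 counts over the group; adjusted p = 0.0376). Under vehicle Il7 had 0 and 2 counts in pDC and 52 and 55 in cDC (adjusted p = 0.0751). So Il7r was higher and Il7 lower in panobinostat pDC than in panobinostat cDC. Kitl (0 to 3.37 CPM) and Il34 (0 to 1.21 CPM) were near 0. Csf1, the gene of the other ligand of Csf1r, stood at 0.464 to 8.96 CPM.

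Partner chains and signalling genes were described from lists of the pathway. The 11 chains listed as partners held both beta chains and, for Il7r, Il2rg and Crlf2. Chains of other receptors, such as Il6st, were listed too. Of the 11, 2 were higher and 1 lower in pDC under vehicle (median log2 0.05, beside 0.02 over all genes). Under panobinostat 1 was higher and 4 lower (median 0.03, beside -0.18). Over all genes 9.73% and 18.0% were called. Il2rg (adjusted p = 0.545 under vehicle and 0.069 under panobinostat) and Crlf2 (0.984 and 0.972) were not called. Apart from the beta chains the vehicle call was Il6st, the gp130 chain of the IL-6 family (log2 -1.38 ± 0.23, adjusted p = 0.0175), which was also lower in pDC under panobinostat (-2.97 ± 0.24, adjusted p = 0.00151). Il4ra was lower there (-2.95 ± 0.78, adjusted p = 0.048) and Il2ra higher (3.29 ± 0.87, adjusted p = 0.0473). Il4ra was 169 and 157 CPM in vehicle pDC and 37.2 and 5.76 CPM in panobinostat pDC, against 139 to 195 CPM in cDC. Il2rb, called lower as well (adjusted p = 0.038), had 1 and 0 counts in panobinostat pDC and 95 and 1388 in panobinostat cDC, the 1388 in the cDC library with the highest sum of natural killer cell markers among the cDC libraries. In neither drug comparison was any of the 11 listed chains called. Il6st in pDC came nearest (-1.32 ± 0.23, adjusted p = 0.128).

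Of 28 kinases and adaptors downstream of the receptors, 2 were higher and 1 lower in pDC under vehicle (median -0.07). Under panobinostat 2 were higher and 8 lower (median -0.57). Over all genes 9.73% and 18.0% were called in these 2 comparisons, with medians of 0.02 and -0.18. Fyn, a Src family kinase, was higher in pDC in both (2.61 ± 0.27, adjusted p = 0.0039, and 3.60 ± 0.29, adjusted p = 0.00143), as was the adaptor Tyrobp (2.49 ± 0.47, adjusted p = 0.0264, and 3.08 ± 0.48, adjusted p = 0.0119). Mtor was lower in pDC under panobinostat (-1.89 ± 0.36, adjusted p = 0.0198). None of the 28 was called in a drug comparison. Their medians were -0.63 in pDC and 0.01 in cDC, beside -0.14 and 0.0 over all genes. Tyk2 (-1.64 ± 0.33, adjusted p = 0.148) and Mtor (-1.66 ± 0.36, adjusted p = 0.159) came nearest in pDC.

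Of 18 inhibitors of receptor signalling, 1 was higher and 1 lower in pDC under vehicle (median -0.63). Under panobinostat 1 was higher and 4 lower (median -1.21). Over all genes 9.73% and 18.0% were called, with medians of 0.02 and -0.18. The phosphatase Ptpn6 (SHP-1) was the higher one under vehicle (1.14 ± 0.20, adjusted p = 0.0213) and the adaptor Dok1 the lower one (-1.82 ± 0.22, adjusted p = 0.00555). Under panobinostat Sh2b3 (LNK, an adaptor that restrains Kit and cytokine receptors; -2.62 ± 0.53, adjusted p = 0.0236), Dok1 (-2.05 ± 0.22), Cbl, a ubiquitin ligase that removes activated Kit and Flt3 (-1.57 ± 0.39, adjusted p = 0.0417), and Inpp5d (SHIP-1; -1.43 ± 0.22, adjusted p = 0.0108) were lower in pDC. No inhibitor was called in a drug comparison.

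Of 18 genes that these receptors are known to induce or control, 1 was higher and 2 lower in pDC under vehicle (median -1.07). Under panobinostat 1 was higher and 3 lower (median -0.89). Over all genes 9.73% and 18.0% were called, with medians of 0.02 and -0.18. Pim2, a survival kinase, was higher in pDC (3.64 ± 0.28, adjusted p = 0.00169, and 2.49 ± 0.26, adjusted p = 0.00336), at 211 and 200 CPM in vehicle pDC, 89.9 and 92.8 CPM in panobinostat pDC and 13.5 to 19.0 CPM in cDC. Its drug difference in pDC did not pass (-1.17 ± 0.25, adjusted p = 0.159). Id2, an antagonist of E proteins, was lower in pDC (-6.29 ± 0.78, adjusted p = 0.00669, and -4.14 ± 0.70, adjusted p = 0.0147), as was the immediate early gene Egr1 (-3.07 ± 0.56 in both; adjusted p = 0.0239 and 0.0182). Of the 17 tested transcription factors of the receptor genes, 1 (Tcf4, the E protein that specifies pDC) was higher in pDC and 2 (Id2 and Zbtb46) lower. This held under vehicle (median -0.39) and under panobinostat (median 0.33), beside the same shares and medians over all genes. Tcf4 differed by 4.55 ± 0.30 and 4.80 ± 0.31 (adjusted p = 0.00135 and 0.00113). None of either list was called in a drug comparison; among the transcription factors Runx1 came nearest in pDC (1.71 ± 0.40, adjusted p = 0.174).

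Outside the receptors, 11 genes of these lists were called between the cell types under vehicle and 27 under panobinostat. All 11 and 26 of the 27 kept their call and sign when either panobinostat pDC library was left out, the exception being Il2rb. Leaving out 1 of the other libraries kept 4 to 6 of the 11, and 6 to 19 of the 27. Under panobinostat 6 of the 27 were kept without panobinostat cDC replicate 1 and 7 without replicate 2. Over all genes, too, the calls between the cell types rose without either panobinostat pDC library and fell without any other. Keeping or losing a call is therefore not read as a trait of the listed genes. With the replicate block all 11 and 22 of the 27 were called. Those lost were Il7, Il2ra, Il4ra, Jak3 and Ptpn11 (adjusted p 0.0523 to 0.0735).

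The genes with the pattern most like each receptor were sought by Pearson's r of log2 CPM over the 8 libraries, among genes with a symbol and a mean log2 CPM of 3 or more. With 4 groups of 2 that share libraries and depth, these values describe the order of the groups. For Il7r they were Fyn (r = 0.997), Siglech (0.996) and Matn2 (0.996). Kit was most like Nod1 (0.998), Foxn2 (0.996) and Chd3 (0.995), and Csf2ra most like Actr3 (0.997), Fen1 (0.996) and Rab32 (0.991). Nod1 averaged 20.1 CPM (vehicle) and 2.03 CPM (panobinostat) in pDC and 175 and 168 CPM in cDC, the same order of cell types as Kit. For Flt3 they were Ap1b1 (0.993), Shkbp1 (0.992) and Pygb (0.991). Csf2rb2 was most like Capn5 (0.992), Nprl3 (0.990) and Ercc5 (0.984), and Csf2rb like Foxred2 (0.986), Peg13 (0.978) and Tspyl3 (0.975). Capn5 averaged 84.2 CPM (vehicle) and 16.6 CPM (panobinostat) in pDC and 4.44 and 3.37 CPM in cDC. Csf1r was most like Plagl2 (0.995), Bmf (0.995) and Specc1 (0.994), Csf3r like 0610010F05Rik (0.984), Ccdc50 (0.983) and 4930523C07Rik (0.983), and Il3ra like Mrpl58 (0.972), Mrps34 (0.960) and Pop5 (0.959). Without panobinostat pDC replicate 2 the same pairs had r of 0.961 to 0.998.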

How the data were processed

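RNA of pDC and cDC sorted from spleen was extracted with Trizol and Direct-zol columns, and libraries came from a NEBNext low-input kit, per the labels' protocols. The submitters' processing notes name bcl2fastq (2.17.1.14), cutadapt (2.1), FastQC (0.11.6), HISAT2 (2.1.0) with mm10 and featureCounts from Subread (2.0.0). The deposited values are whole-number read counts per Entrez gene ID; the strand setting, the annotation and the treatment of multimapped reads are not known from the labels. Columns named D5W were taken as vehicle and LBH as panobinostat. A symbol was found for 25275 of 27179 IDs (92.99%).

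The members and gene lists were chosen with earlier results of these data known. With edgeR (4.0.16, R 4.3.3), genes were kept by filterByExpr (minimum count 10, total 15), scaled by TMM and fitted over all 8 libraries with 1 coefficient per group (4 residual degrees of freedom); contrasts used its quasi-likelihood F test, with p-values adjusted after Benjamini and Hochberg. The fit was also run on simulated counts that had the same mean in every group except for genes changed on purpose. No result here rests on that run. RPKM used GENCODE vM21 exon lengths. No molecular identifiers are recorded, so the floor covers counting error only. Named were all 9 receptors; from each pathway list the called genes (at most 4 of largest change) or the 2 of smallest p; 3 genes of like pattern per receptor; and the defining markers. A gene so named is not reported here. Alternatives were RLE scaling, no filter, DESeq2 (1.42.0), limma voom (3.58.1) with quality weights, a replicate block, the compared groups alone and each library left out. Replicate numbers come from the titles, and the labels do not say what a number shares. Deviations of same-numbered libraries from their group means correlated at 0.15 to 0.49 in every pair of groups. The main fit did not pair them, so its p-values leave this likeness out. Only the replicate block, 1 of the alternatives, took it into account.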

Additional observations from a re-analysis of the deposited data

Results flagged for a closer look

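For 3 receptors both panobinostat libraries lay on one side of both vehicle libraries in pDC and on the opposite side in cDC, as they did for 1212 of all 14238 genes (8.51%). For Il7r the libraries were higher in pDC and lower in cDC, and the tested difference of the responses was 1.04 ± 0.31 (edgeR, adjusted p = 0.456). For Flt3 they were lower in pDC and higher in cDC, with a difference of -0.82 ± 0.23 (adjusted p = 0.44). For Kit the signs were those of Flt3, with a difference of -4.53 ± 1.41 (adjusted p = 0.465). None of these differences passed the test with all 8 libraries.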

How the results depend on the processing

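Of 621 refitted log2 differences of the 9 receptors (45 values under 13 or 14 alternatives), 542 kept their direction and side of the threshold, 39 gained a call, 21 lost one and 19 changed sign. Between the cell types, receptors that edgeR over all libraries did not call were called under some of the 14 alternatives: under vehicle 6 for Kit, 6 for Csf1r and 5 for Csf3r, and under panobinostat 4 for Csf1r, 2 for Csf3r and 1 for Csf2rb2. Apart from no filter, the settings with such calls also called a larger share of all genes than the main fit. DESeq2, 1 of them, called 21.5% under vehicle and 31.6% under panobinostat, against 9.73% and 18.0%. The tally is therefore not read as a trait of the receptors. The replicate block changed no call of a receptor. In the order pDC response, cDC response, difference of responses, pDC against cDC under vehicle and under panobinostat, the main counts of called genes were 13, 0, 1, 1385 and 2557. DESeq2 called 914, 15, 290, 2880 and 4495, and limma voom with quality weights 0, 16, 0, 5228 and 473. With only the compared libraries the pDC response had 0 calls, the vehicle comparison 4491 and the panobinostat comparison 161. RLE scaling gave 2 for the pDC response and 0 for the difference, no filter gave 68 and 5, and the replicate block 0 and 0. Leaving out each library gave 0 to 8227, 0 to 0, 0 to 6457, 288 to 5531 and 346 to 9796. For receptors called, DESeq2 gave 3 in the pDC response (6.68% of all genes), 7 under vehicle (21.5%) and 6 under panobinostat (31.6%). Voom gave 7 under vehicle (36.7%) and 2 under panobinostat (3.32%), and the compared libraries alone also 7 (32.8%) and 2 (1.21%). With no filter 6 receptors were called under vehicle (1499 of 22659 genes) and 5 under panobinostat (2389 of 22659 genes). Leaving out each library gave 0 to 5, 0 to 0, 0 to 5, 2 to 7 and 2 to 6. The cause of these shifts was not tested.

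These values changed sign. The Csf2rb2 response in cDC was 0.03 with voom, 0.05 with the replicate block and -0.37 to 0.46 with libraries left out. The Csf2ra difference of responses was -0.02 with no filter, -0.01 with voom and -0.13 to 0.12 with libraries left out. With libraries left out, Il3ra ran from -0.30 to 0.69 (pDC response), -0.07 to 0.01 (cDC response) and -0.27 to 0.74 (difference), Csf3r from -0.87 to 1.43 (pDC response) and -0.37 to 1.95 (difference), Csf1r from -0.99 to 0.03 and Csf2rb from -0.33 to 0.15 (both cDC response). Per longest protein-coding transcript (chosen after seeing the data) the order of levels per length changed as given with the results. Kit, Csf1r and Csf3r had low counts in pDC, 0 to 663 a library.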
